A study of Mus musculus with 60 samples.

Results

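Ankrd6 (ENSMUSG00000040183) and Rars2 (ENSMUSG00000028292) are 2 of the 9066 genes measured in the striatum of 60 mice, and they lie on the same chromosome, 4. They were selected on the difference of their gene values between catalepsy responders and non-responders in these same mice, Ankrd6 being higher and Rars2 lower in responders. The difference between the phenotypes is therefore given for them as a description, without a test. Their exon rows, 18 for Ankrd6 and 20 for Rars2 of 114691 in all, belong to the same choice. Both genes passed the filter on low values that 8535 genes passed.

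The mice were HS-CC animals, a heterogeneous stock formed from the inbred founder strains of the collaborative cross, and descended from generations bred for their response to haloperidol, a dopamine receptor antagonist that can produce catalepsy, a state of immobility. Striatum was dissected by hand, and each mouse gave 1 polyA RNA-seq library. The phenotype in the labels is non-responder (30 mice, 13 female and 17 male) or responder (30 mice, 15 female and 15 male). Every mouse shared the stock and the breeding history, no strain, allele, age or drug given at collection is stated in the labels, and family relations were not analysed here, so mice of 1 phenotype may be more closely related to each other than to the rest.

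Ankrd6 encodes diversin, a cytoplasmic protein with a row of ankyrin repeats at its start that acts in Wnt signalling, where it favours degradation of beta-catenin and takes part with Dishevelled in planar cell polarity. Rars2 is a nuclear gene for the arginyl-tRNA synthetase of mitochondria, the enzyme that loads arginine onto its mitochondrial tRNA before mitochondrial protein synthesis. In humans, inherited loss of RARS2 function causes a pontocerebellar hypoplasia, a disorder of early brain growth. The striatum is the main input nucleus of the basal ganglia and is rich in dopamine receptors and in projection neurons.

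In the GENCODE M21 annotation of GRCm38, Ankrd6 occupies chr4:32804035-32950841 on the minus strand, and Rars2 chr4:34614957-34660167 on the plus strand, 1.66 Mb farther along the chromosome. The files use an older build, NCBI m37, and name each exon row by its start there. The spacing between the row starts was the same as that between GRCm38 exon starts for 18 of 18 Ankrd6 rows and 20 of 20 Rars2 rows, which gave each row its exon length and coding part without converting coordinates. Gm11941, a gene on the opposite strand within Ankrd6, overlapped it, and no annotated gene overlapped Rars2.

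Ankrd6 exons 5 to 10, counted from the 5′ end, are 99 bases each, or 33 codons, the usual length of an ankyrin repeat. Exons 8, 9 and 10 are shown because the exon 9 row differed in direction from its neighbours in the values given further on. They are from GENCODE M21 transcripts (minus strand of GRCm38, chr4:32824396-32824494, chr4:32823406-32823504 and chr4:32822153-32822251), and capitals mark the 31 bases that all of them have at the same place.
Ankrd6 exon 8: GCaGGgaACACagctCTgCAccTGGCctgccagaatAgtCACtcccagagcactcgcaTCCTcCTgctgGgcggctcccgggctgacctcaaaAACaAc
Ankrd6 exon 9: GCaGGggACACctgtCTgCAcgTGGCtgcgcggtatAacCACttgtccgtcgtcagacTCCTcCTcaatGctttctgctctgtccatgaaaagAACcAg
Ankrd6 exon 10: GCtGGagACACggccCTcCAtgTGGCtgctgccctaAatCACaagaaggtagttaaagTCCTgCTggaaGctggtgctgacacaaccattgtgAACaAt
Exons 8 and 9 had 51 of 99 bases in common, exons 9 and 10 had 48, and over all pairs of the 6 exons of this length the number ran from 39 to 51.

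For Rars2, the exon with the highest share of its exon values, exon 9 (chr4:34645697-34645855, plus strand, all 159 bases coding), is shown, followed by the 250 bases upstream of the RefSeq start of the gene (chr4:34614707-34614956, GRCm38.p6, plus strand). Orc3, a subunit of the origin recognition complex of DNA replication, starts in the opposite direction just before Rars2, and capitals in the upstream window mark the 14 bases between their RefSeq starts.
Rars2 exon 9: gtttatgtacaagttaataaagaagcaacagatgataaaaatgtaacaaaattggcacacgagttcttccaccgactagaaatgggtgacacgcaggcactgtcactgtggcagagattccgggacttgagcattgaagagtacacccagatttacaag
Rars2 upstream: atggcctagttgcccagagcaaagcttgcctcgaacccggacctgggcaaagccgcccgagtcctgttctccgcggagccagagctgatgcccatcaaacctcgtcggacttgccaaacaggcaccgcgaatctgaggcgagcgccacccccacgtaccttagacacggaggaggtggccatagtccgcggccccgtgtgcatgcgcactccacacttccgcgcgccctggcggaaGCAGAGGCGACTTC
G and C made up 64.8% of this window, which held 23 CG dinucleotides and no TATAAA on the strand shown.

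The gene table holds read counts scaled by an upper-quartile factor per library, here called normalized read counts. In non-responders, Ankrd6 had a lowest normalized read count of 896, a median of 1238 and a highest of 1620. In responders, the lowest was 999, the median 1566 and the highest 2109. Ankrd6 was thus higher in responders as a group, and the groups overlapped: 12 of 30 responders lay above every non-responder, and 5 of 30 non-responders lay below every responder. The mean was 1223 ± 204 (SD, n = 30) in non-responders and 1570.0 ± 268 (SD, n = 30) in responders. On the log2(value + 1) scale, with sex in the model, responders were higher by 0.36 (SE 0.06), or 1.28-fold.

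For Rars2, non-responders ranged from 96.4 through a median of 139 to 197 in normalized read count. Responders ranged from 79.6 through a median of 107 to 157. Rars2 was lower in responders as a group, again with overlap, since 6 of 30 responders lay below every non-responder and 5 of 30 non-responders above every responder. The mean was 140.3 ± 21.2 (SD, n = 30) in non-responders and 113 ± 21.5 (SD, n = 30) in responders. The log2 difference, responder minus non-responder, was -0.32 (SE 0.06), a level 0.803 times that of non-responders. In bulk striatum, fewer cells of a type and less RNA per cell cannot be told apart.

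**Figure D1:**
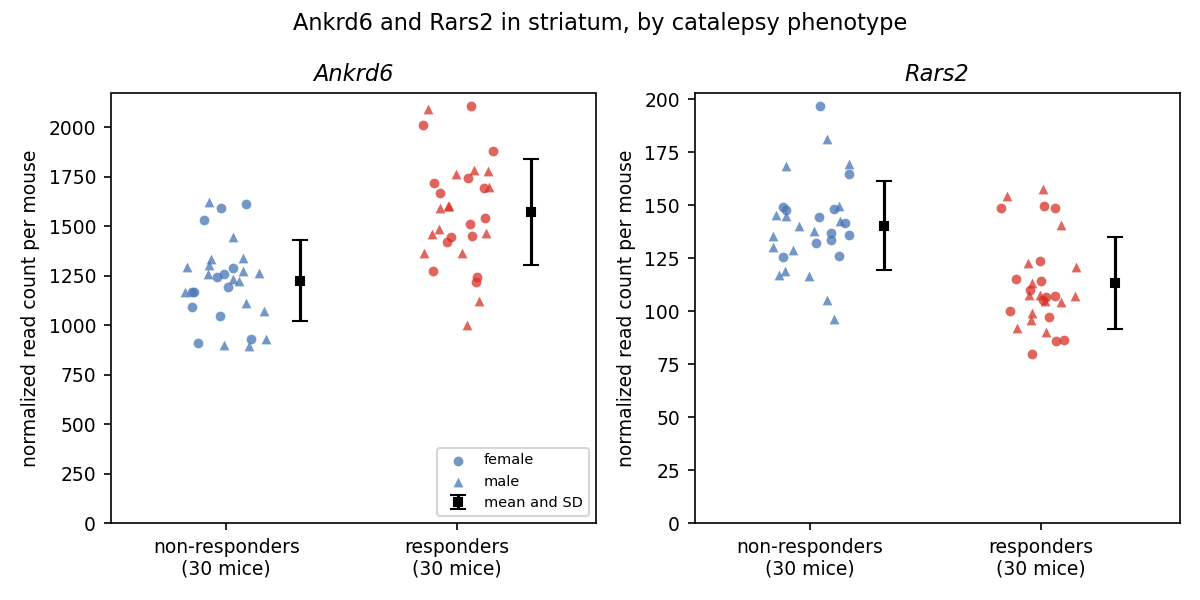
Normalized read count of Ankrd6 (left) and Rars2 (right) in each of 60 mice, by catalepsy phenotype (x axis), with circles for females and triangles for males; squares with bars are the mean and SD. Ankrd6 lies higher and Rars2 lower in responders, and in both genes the phenotypes overlap.

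Across all genes, limma called 9 of 8535 (0.105%) at an adjusted p under 0.05, 4 of them higher (0.0469%) and 5 lower (0.0586%) in responders. Ankrd6 and Rars2 are in this set by choice, so their being called is no further evidence, and neither was called by limma in the deep libraries, the shallow libraries, the females or the males alone. edgeR, on whole reads recovered from the table, called 7 genes (0.082%), and gave log2 differences of 0.36 for Ankrd6 and -0.31 for Rars2. Of the 527 tested genes on chromosome 4, 2 were called, which are Ankrd6 and Rars2 themselves. With these 2 included, 48 (9.11%) had an unadjusted p under 0.05 by limma. At an unadjusted p under 0.05, limma had 554 genes (6.49%) and edgeR 556 (6.51%). The link of both genes to the response is thus a difference in group level with overlapping ranges.

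The levels showed no steps set apart by a gap. Normal mixtures of 1 to 4 components with equal variance were fitted to the log2 values of all 60 mice. Components of unequal variance were not fitted. The choice was 1 component for Ankrd6 and 1 for Rars2, whereas more than 1 was chosen for 25% of all genes. The largest gap between neighbouring mice was 8.02% of the range for Ankrd6 and 9.03% for Rars2. Over all genes the median of this gap was 15.4%, and 94.6% of genes had a larger gap than Ankrd6 and 89.7% a larger gap than Rars2. No separate levels were thus seen in either gene, also with the phenotypes pooled, and the difference between phenotypes was one of a shifted range. With 60 mice, levels that overlap cannot be told from a continuous spread in this way. The gap, as a share of the range, also depends on outlying mice.

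The spread between mice includes counting error. Whole reads recovered per library were 397 to 3019 for Ankrd6 and 45 to 201 for Rars2. Counting alone would give a coefficient of variation of 3.18% for Ankrd6 in non-responders, where 16.7% was observed. For Rars2 it would give 9.13% in non-responders, where 15.1% was observed, and 10.3% in responders, where 19% was observed. Per 100 bases of exon, the mean normalized read count was 28.99 for Ankrd6 and 6.53 for Rars2, so Ankrd6 was also the more abundant per length.

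Library depth and read position differed between mice, and these values stand beside the differences. Recovered reads fell into a shallow range (17 mice, 4913122 to 9507322 reads) and a deep range (43 mice, 12051239 to 21872744), with 9 and 8 shallow libraries in non-responders and responders. In the shallow libraries, mean Ankrd6 was 1174 ± 239 (SD, n = 9) in non-responders and 1556 ± 138 (SD, n = 8) in responders. In the deep libraries it was 1244 ± 190.3 (SD, n = 21) and 1575 ± 305 (SD, n = 22). Ankrd6 was higher in responders in both ranges. Rars2 was 159 ± 21.3 against 118 ± 23.7 in the shallow libraries and 133 ± 15.9 against 111 ± 20.9 in the deep ones, non-responders first. The log2 differences were 0.42 for Ankrd6 and -0.43 for Rars2 in the shallow range, and 0.33 and -0.27 in the deep range. Non-responders had more Rars2 in shallow than in deep libraries, and this was not tested.

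Mice 63, 5, 4 and 62 had reads shifted most towards the 3′ ends of genes. Without them the log2 difference was 0.39 (SE 0.06) for Ankrd6 and -0.35 (SE 0.06) for Rars2, so both were as large without these libraries. Mouse 4 and mouse 63 were responders with 157 and 149 normalized reads of Rars2, near the top of their group.

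Summed levels of marker genes overlapped between the phenotypes. Of the striatal projection neuron markers, 8 were deposited, and their summed level ran from 61613 to 141205 in non-responders and from 66056 to 124716 in responders. The markers Ppp1r1b, Drd2 and Pde10a had means of 22678, 4620.3 and 27479 in non-responders, so markers of the labelled tissue were present. Tbr1, a marker of cortical excitatory neurons, averaged 1632 ± 712 in non-responders and 1593 ± 726 in responders, and ran from 219 to 3089 over mice (log2 difference -0.09, SE 0.19, limma adjusted p = 1.00). Deposited markers of astrocytes (3), oligodendrocytes (4), microglia (3) and endothelium (1), like the projection neuron list, had 0 genes called by limma or edgeR. Over all genes the shares called were 0.105% and 0.082%. At an unadjusted p under 0.05 by limma these lists had 1 gene, beside 6.49% of all genes. It was the astrocyte gene Aldh1l1 with a log2 difference of -0.16 (SE 0.05). Lists this short cannot show whether the cell make-up of the phenotypes was alike. None of the 2 choroid plexus markers listed was among the genes measured here.

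The sex of the mice, which the choice of the genes did not use, was tested for both. In females, mean Ankrd6 was 1233 ± 229 in non-responders and 1595 ± 270.0 in responders, and in males 1216 ± 191 and 1545 ± 274. The log2 difference, female minus male, was 0.03 (SE 0.06, adjusted p = 1.00, limma). For Rars2 it was 0.02 (SE 0.06, adjusted p = 1.00, limma). Neither gene differed detectably by sex, whereas 3 of 8535 genes (0.0351%) did.

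The response difference of Ankrd6 was 0.37 in females and 0.34 in males on the log2 scale, and that of Rars2 was -0.38 in females and -0.26 in males. The difference between these, the interaction, was 0.03 (SE 0.13, adjusted p = 1.00) for Ankrd6 and -0.13 (SE 0.13, adjusted p = 1.00) for Rars2. Female Rars2 ranged from 126 to 197 in non-responders and from 79.6 to 149 in responders, so overlap between the phenotypes remained within a sex. limma called 0 genes (0%) for the interaction and had 48 genes (0.562%) at an unadjusted p under 0.05, and edgeR called 0 with 44 such genes (0.516%).

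The levels of the genes were next compared with each other. Of 30 responders, 21 had Ankrd6 above and Rars2 below the median of all mice, and 2 the reverse. Of 30 non-responders, 2 had Ankrd6 above and Rars2 below these medians, and 21 the reverse. This split follows from the choice of the genes, as does much of the pooled correlation over 60 mice (Pearson's r = -0.50), so neither is evidence for a link between the genes. The log2 ratio of Ankrd6 to Rars2, in which the scaling factor of a library cancels, was 3.12 ± 0.36 in non-responders (range 2.42 to 3.91) and 3.80 ± 0.42 in responders (range 2.83 to 4.44). Of the responders, 15 had a higher ratio than every non-responder, against 12 for Ankrd6 alone. The ratio joins 2 genes chosen in opposite directions, so this separation follows from the choice too and is no further evidence.

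Within a phenotype the choice fixes no direction, and there the correlation of log2 values was tested by permutation with 100000 resamples, two-sided, with adjustment over 4 tests. In non-responders, Pearson's r was -0.21 (permutation p = 0.257, adjusted p = 0.343) and Spearman's rho -0.16 (permutation p = 0.398, adjusted p = 0.398). In responders, Pearson's r was -0.30 (permutation p = 0.106, adjusted p = 0.22) and Spearman's rho -0.30 (permutation p = 0.11, adjusted p = 0.22). Both were negative and neither passed the threshold. Without the 2 mice farthest from the median of Ankrd6, r was -0.16 in non-responders (without mice 50 and 54) and -0.38 in responders (without mice 4 and 60). By depth range, r was -0.17 in the 21 deep and -0.09 in the 9 shallow libraries of non-responders, and -0.36 in the 22 deep and -0.09 in the 8 shallow libraries of responders, given as descriptions.

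**Figure D2:**
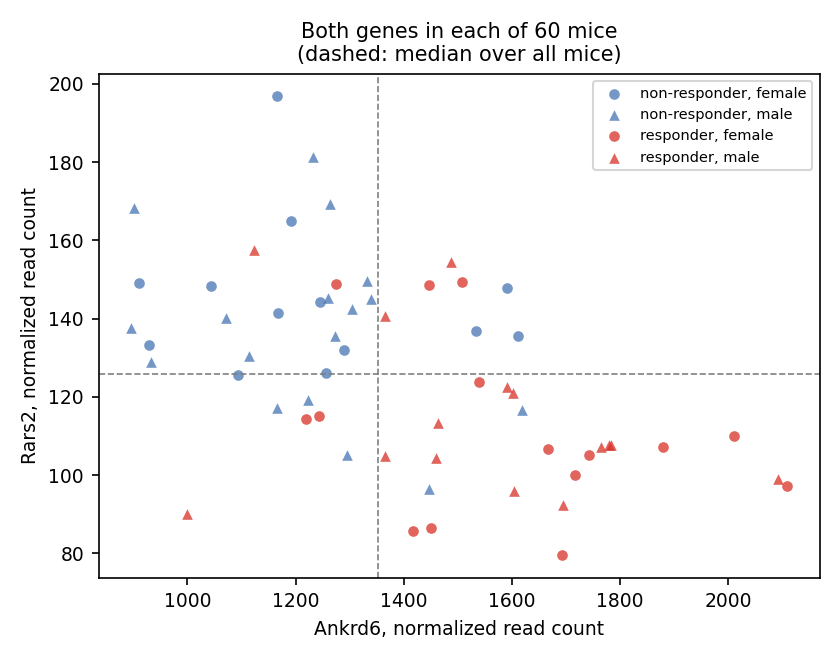
Normalized read count of Rars2 (y axis) against Ankrd6 (x axis) in each mouse, coloured by phenotype, with circles for females and triangles for males and dashed lines at the medians of all mice. Most responders (21 of 30) lie in the lower right and most non-responders (21 of 30) in the upper left, with no gap between them.

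The exon table shows where along the genes the reads lay. Its values are scaled counts that were rounded to whole numbers. In Ankrd6, the last exon (row start 32891010 on m37, 2608 bases of which 527 code) held 76.9% of all exon values. Its value ran from 674 through a median of 910 to 1302 in non-responders and from 754 through 1218 to 1632 in responders. The groups overlapped here too, with 10 responders above every non-responder. Its mean was 933 ± 169 in non-responders and 1214 ± 209 in responders, a log2 difference of 0.38 (SE 0.07), and it made up 80.8% of the difference in the sum of the exon rows.

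The remaining 17 rows of Ankrd6 together ranged from 204 to 398 in non-responders and from 134 to 493 in responders. Their log2 difference was 0.27 (SE 0.09), so the rest of the gene moved in the direction of its last exon. Over mice, the last exon and the rest had a correlation of log2 values of 0.62 in non-responders and 0.50 in responders, in which both share the library. The last exon's share of the gene was 76.2% ± 2.72 in non-responders and 77.4% ± 3.73 in responders. It was 90.7% in mouse 63 and 84.8% in mouse 5, the mice with most 3′ bias, and 74.1% ± 1.90 over the shallow against 77.9% ± 3.11 over the deep libraries.

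By row, 12 of 18 Ankrd6 rows averaged at least 10, and 11 of these were higher in responders, with log2 differences from -0.26 to 0.46 and a median of 0.25. Over all 17 rows with reads, 13 were higher and 4, those of exons 1, 2, 9 and 13, were lower. The first coding exon, exon 4, had means of 53.5 ± 12.4 and 74.2 ± 25.6, non-responders first, and a log2 difference of 0.40 (SE 0.13). Exon 14, entirely coding, had 59.9 ± 12.3 and 71.3 ± 17.97, with a difference of 0.22 (SE 0.09). Exon 16 had 17.6 ± 5.75 and 24.5 ± 8.64, with a difference of 0.44 (SE 0.12). The difference was thus spread over coding exons at both ends of the gene as well as the last exon. Rows of the untranslated exons 1 and 2 averaged 1.75 and 1.85, and the row of exon 3 was listed at 0 in every mouse.

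Exon 9, whose sequence is shown among the ankyrin repeat exons, was the 1 row averaging at least 10 that was lower in responders. It ran from 4 through a median of 14 to 22 in non-responders and from 2 through 13 to 36 in responders, largely overlapping. Its mean was 14.2 ± 4.12 in non-responders and 12.4 ± 5.99 in responders, a log2 difference of -0.26 (SE 0.16). Exons 8 and 10 on either side differed by 0.17 (SE 0.16) and 0.15 (SE 0.17). As a share of the gene, exon 9 differed by -0.62 (SE 0.15) on the log2 scale, exon 8 by -0.19 (SE 0.13) and exon 10 by -0.21 (SE 0.15). The correlation of the exon 9 row with the rest of the gene was 0.08, against 0.52 for exon 8 and 0.43 for exon 10. Exon 9 was singled out after its values were seen, and at about 13 scaled reads per mouse it carries little of the gene.

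In Rars2 no row dominated. Exon 9 held 19.3% of the exon values, exon 14 (125 bases, coding) 13.2% and the last, exon 20, 8.20%, and these were the 3 of 20 rows averaging at least 10. Exon 9 ran from 10 through a median of 28 to 40 in non-responders and from 8 through 22 to 33 in responders. Exon 14 ran from 10 through 18.5 to 27 in non-responders and from 7 through 14 to 25 in responders. Both were lower in responders with overlap, by log2 differences of -0.31 (SE 0.11) and -0.36 (SE 0.10). Exon 20 averaged 10.6 ± 3.94 and 10.1 ± 3.93, non-responders first, with a difference of -0.06 (SE 0.13).

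Of the 20 Rars2 rows, 18 had reads, and on the log2(value + 1) scale the difference was below 0 in all 18, with a median of -0.33. On the scale of the values themselves, the mean of exon 1 was 4.73 in both phenotypes and that of exon 6 was 2.43 in non-responders and 2.53 in responders. Exon 9 accounted for 18.03% of the difference in the summed rows, exon 14 for 14.6%, exon 3 for 11.3% and exon 17 for 10.2%. The lower level in responders was thus spread over several exons. Rows of exons 12 and 13, coding exons of 61 and 77 bases, were listed at 0 in every mouse, and 13 of the 20 exons are shorter than 100 bases. Rows with reads of these short exons had a median value of 4.43 per 100 bases, against 8.17 for the longer ones, and in Ankrd6 it was 11.6 against 23.9.

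**Figure D3:**
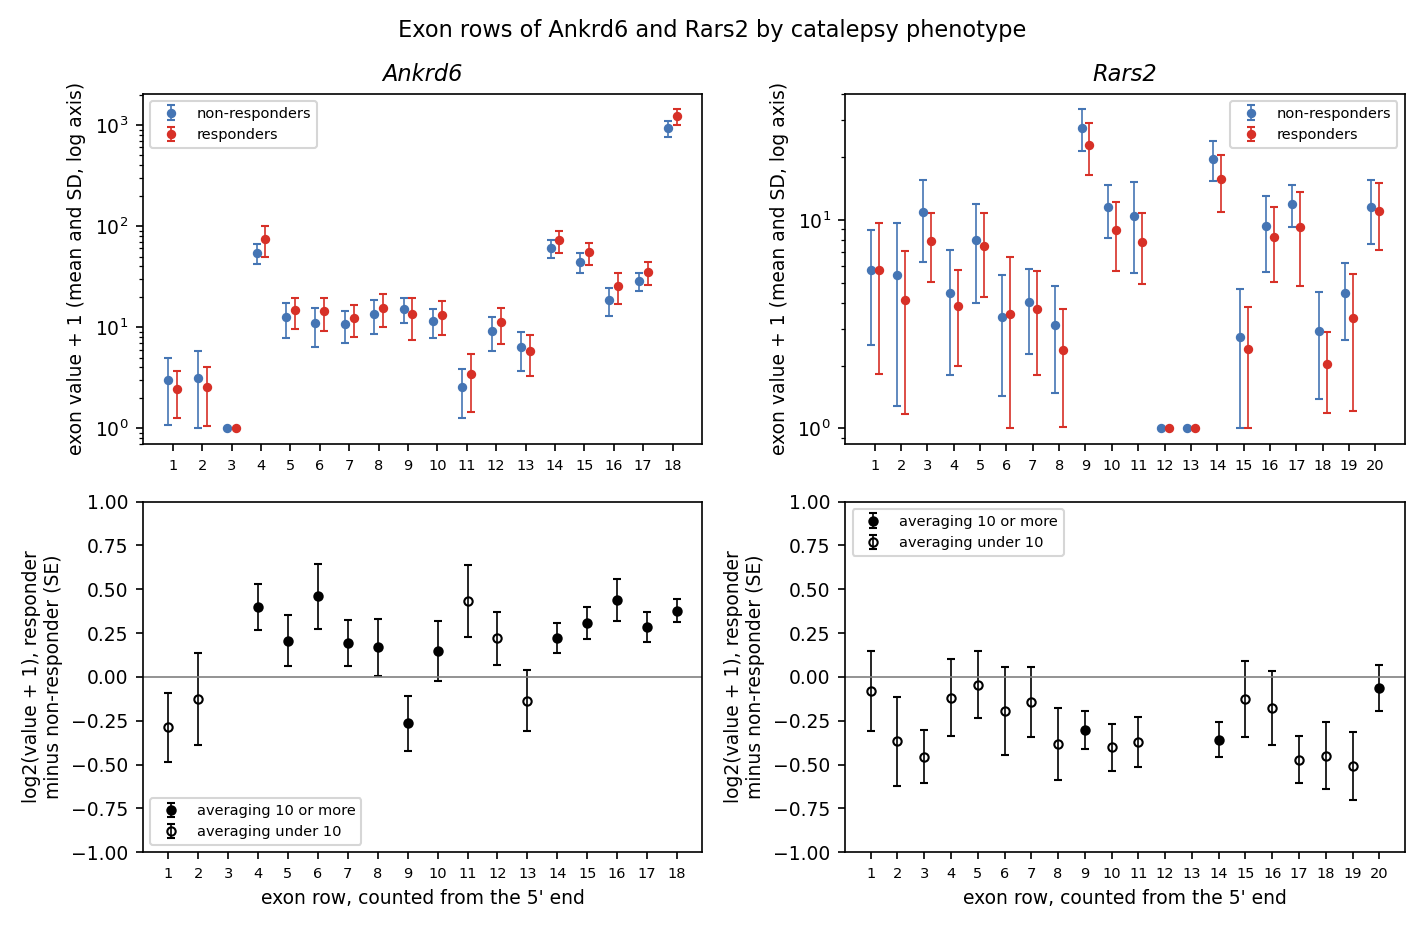
Exon rows of Ankrd6 (left) and Rars2 (right) from the 5′ end: above, mean exon value + 1 with SD in each phenotype on a log axis (lower bars stop at 1); below, log2(value + 1) of responders minus non-responders with SE, filled where the row averages at least 10 and left out where it is 0 throughout. All Ankrd6 rows averaging at least 10 except exon 9 lie above 0, and on this scale all Rars2 rows with reads lie below 0.

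Over all 67578 exon rows averaging at least 10, limma called 12 (0.0178%), 7 higher (0.0104%) and 5 lower (0.0074%) in responders. The last exon of Ankrd6 was among them, by the same choice as its gene, and with the deep libraries alone it was not. When each row was taken as a share of its gene, 14 of 67134 rows (0.0209%) were called, and no row of Ankrd6 or Rars2 was.

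The genes lying near Ankrd6 and Rars2 were not used to choose them, and their response difference was tested. Within 2 Mb of either gene, 19 other genes were deposited, 15 of which averaged at least 10. Of these 15, limma and edgeR called 0, beside 0.105% and 0.082% of all genes. At an unadjusted p under 0.05 there were 0 by either tool, beside 6.49% and 6.51% of all genes. With such shares over all genes, 0 of 15 is no result about the neighbours. Their log2 differences ran from -0.09 to 0.06 with a median of -0.02, beside -0.003 over all genes, and 10 were below and 5 above 0. Standard errors were 0.03 to 0.13, beside log2 differences of 0.36 for Ankrd6 and -0.32 for Rars2.

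Next to Ankrd6, Mdn1, a large ATPase of ribosome assembly 28.8 kb away, averaged 1418 ± 452 in non-responders and 1465 ± 461 in responders (log2 difference 0.04, SE 0.13). Ube2j1, a ubiquitin-conjugating enzyme of the endoplasmic reticulum 80.6 kb away on the other side, averaged 2122 ± 265 and 2108 ± 249 (log2 difference -0.01, SE 0.05). Neither passed the threshold, with a limma adjusted p of 1.00 for both. Cnr1, the main cannabinoid receptor of the brain, lies between Ankrd6 and Rars2. It ran from 6848 to 17018 over mice, with means of 10039 ± 1588 and 10709 ± 2685 and a log2 difference of 0.06 (SE 0.08, limma adjusted p = 1.00).

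Of the upstream window printed above, only the 14 capitals lie before the starts of both Rars2 and Orc3, and the rest lies within Orc3. Next to Rars2, Orc3 averaged 801 ± 86.9 in non-responders and 758 ± 110 in responders. Its log2 difference was -0.09 (SE 0.05, limma adjusted p = 0.913), the farthest from 0 among the 15 genes and in the direction of Rars2, though not past the threshold. Slc35a1, a transporter of activated sialic acid 3.09 kb beyond Rars2, averaged 401 ± 55.2 and 394 ± 57.6, with a difference of -0.03 (SE 0.05, limma adjusted p = 1.00). The nearest measured genes on both sides of Ankrd6 and Rars2 were thus not called by limma, like all but 0.105% of genes.

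**Figure D4:**
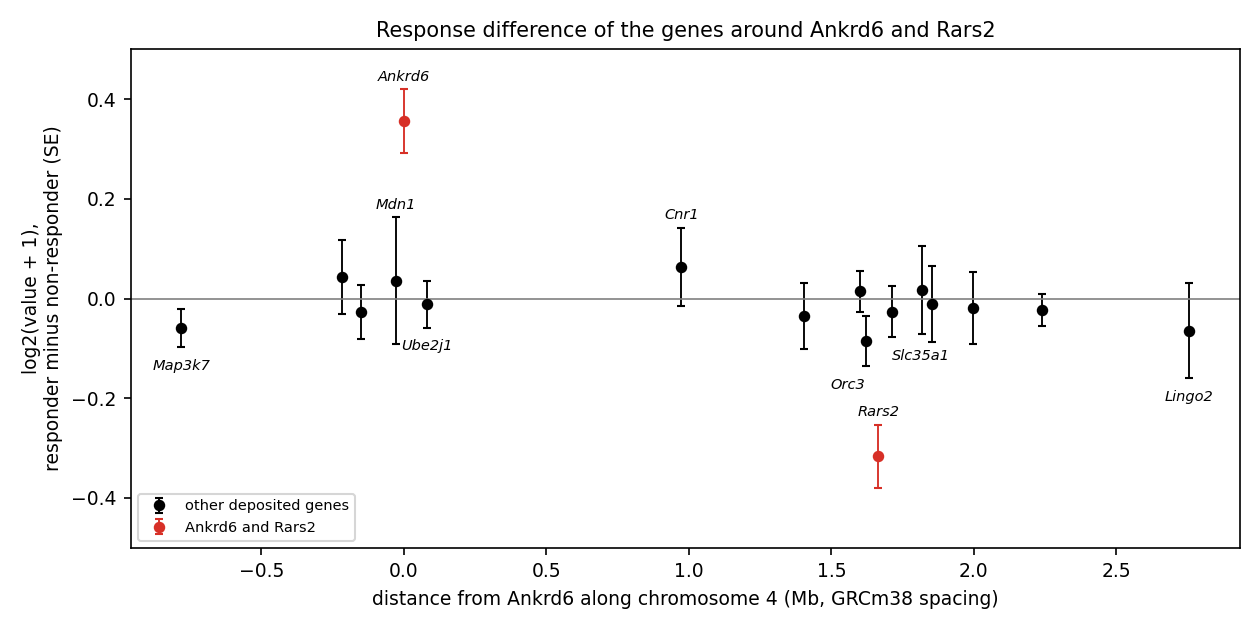
Log2(value + 1) of responders minus non-responders with SE (y axis) for Ankrd6, Rars2 and the 15 other tested genes within 2 Mb of them, by distance from Ankrd6 in Mb (x axis). The other genes lie between -0.09 and 0.06, with Ankrd6 above and Rars2 below them.

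With the means of the phenotype and sex groups removed, correlations of log2 values over 60 mice described which genes varied with Ankrd6 or Rars2, in the same or the opposite direction, from mouse to mouse. They are descriptions, since all genes of a mouse share its library, and library depth and read position were not adjusted for. Among the 15 neighbours, r with Ankrd6 ran from -0.38 (Ube2j1) to 0.22 (Mob3b), and r with Rars2 from -0.33 (Ube2j1) to 0.43 (Smim8). Over all genes, the central 95% of values ran from -0.36 to 0.33 for Ankrd6 and from -0.45 to 0.39 for Rars2, so 1 neighbour of each lay outside. Orc3 had r = 0.21 with Rars2, within that range although their starts are adjacent.

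The 5 genes with the largest absolute r with Ankrd6 were Dusp7, a MAP kinase phosphatase (r = -0.58), Man1a, a mannosidase of the Golgi (0.57), Pbx3, a homeodomain transcription factor (0.55), Snx27, a sorting nexin of endosomes (0.55), and ENSMUSG00000056364 (0.54), which has no symbol here. Those with the largest absolute r with Rars2, 4 of them varying opposite to it, were Tuba4a, an alpha-tubulin (r = -0.62), Fam234b (-0.61), Ina, a neuronal intermediate filament protein (-0.60), Atcay, which encodes caytaxin (-0.59), and Col11a2, a collagen chain (0.59). None of those with a known position lies on chromosome 4. For the response, limma and edgeR called 0 of the 10, beside 0.105% and 0.082% of all genes. At an unadjusted p under 0.05 there was also none among them by limma, beside 6.49% of all genes. For 10 genes these counts are no result.

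The pathways of both genes were described from lists of their known partners. For Wnt signalling and planar cell polarity, 44 other genes were tested. limma and edgeR called 0 in either direction, beside 0.105% and 0.082% of all genes. At an unadjusted p under 0.05 there were 4 of 44 by each tool, beside 6.49% of all genes by limma and 6.51% by edgeR. The median log2 difference of this list was -0.02, beside -0.003 over all genes. Invs, or inversin, is a ciliary protein that like diversin carries ankyrin repeats and acts in Wnt signalling. It averaged 221 ± 64.9 in non-responders and 162 ± 37.5 in responders (log2 difference -0.41, SE 0.10, limma adjusted p = 0.0985). Invs lies on chromosome 4, as Ankrd6 and Rars2 do, and whether its difference is linked to its position there was not tested. Fzd6, a Frizzled receptor, had a difference of 0.23 (SE 0.09, limma adjusted p = 0.438), and Scrib, a polarity scaffold, -0.13 (SE 0.05, limma adjusted p = 0.45).

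Of the other aminoacyl-tRNA synthetases that work in mitochondria, 14 were tested. limma and edgeR called 0 of them, with 1 of 14 at an unadjusted p under 0.05 by each tool, beside 6.49% and 6.51% of all genes, and their median log2 difference was 0.02. The smallest p was that of Fars2, the phenylalanine enzyme, with means of 405 ± 67.7 and 453 ± 56.01 (log2 difference 0.17, SE 0.05, limma adjusted p = 0.205). Iars2 (-0.07, SE 0.05) and Hars2 (0.05, SE 0.04), for isoleucine and histidine, came next, and both had a limma adjusted p of 1.00. Lars2, the leucine enzyme, ranged from 914 to 546556 over mice, with a log2 difference of 0.08 (SE 0.81). Its SD of 144189 in non-responders was larger than its mean of 79067. The cause of this range was not tested, and these values are not read as the level of the enzyme.

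Of the synthetases of the cytosol and their auxiliary proteins (Aimp1, Aimp2 and Eef1e1), 18 genes were tested, with 0 called by limma and edgeR, 3 at an unadjusted p under 0.05 by each, beside 6.49% and 6.51% of all genes, and a median log2 difference of -0.009. Wars, for tryptophan, had a difference of -0.25 (SE 0.07, limma adjusted p = 0.113), and Rars, the cytosolic counterpart of Rars2, one of 0.12 (SE 0.05, limma adjusted p = 0.46), opposite in sign to Rars2. Qars, for glutamine, had -0.07 (SE 0.03, limma adjusted p = 0.646). Of the mitochondrial tRNA modification and translation factors, 6 were tested, with 0 called by limma and edgeR and 0 at an unadjusted p under 0.05 by either. Trmt10c, Tsfm and Gfm2, with the smallest p, had differences of 0.07 (SE 0.06), 0.05 (SE 0.05) and -0.04 (SE 0.06). No other tested synthetase or factor of these lists was called, beside 0.105% of all genes by limma and 0.082% by edgeR. With so small a share over all genes, 0 called in short lists is no result about these pathways.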

How the data were processed

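PolyA RNA-seq of striatum from 60 mice was analysed, with groups from GEO's labels. The authors aligned reads with Bowtie 0.12.7 to NCBI m37 (mm9), an aligner that places reads without gaps, and summarized them by union exon for the gene models of Ensembl 59. The deposited gene table holds a signal, counts multiplied by an edgeR 3.4.2 upper-quartile factor, and the deposited exon table a score, scaled counts rounded to whole numbers. Whether counting used strand is not given in the sources used here. Whole reads were recovered from the gene table, 100% of values within 0.01 reads, and totalled 4913122 to 21872744 per mouse. Each mouse is 1 sample, so precision comes from the spread between mice, and counting error is that of the recovered reads.

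The main test was limma 3.58.1 with trend on log2(value + 1), for genes with a mean of 10 or more, with sex and phenotype as terms, in R 4.3.3, adjusted by Benjamini-Hochberg. edgeR 4.0.16 quasi-likelihood, DESeq2 1.42.0 on recovered reads, other filters, pseudocounts, depth ranges and sets of mice were alternatives. Mixtures with components of equal variance were fitted with mclust 6.1.1. The fits were tested on simulated data. Positions came from GENCODE M21, in which 97.7% of identifiers were found, and the upstream sequence from RefSeq.

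The genes and lists were chosen with earlier results of these data known. The genes named were Ankrd6 and Rars2 with their exon rows, the nearest deposited gene on each side of each, Cnr1, the 5 genes most correlated with each, and the 3 genes of smallest p in a list without a called gene. Aldh1l1, Mob3b, Smim8, Lars2 and the marker genes with their values were named after these were seen. The marker and pathway lists hold older symbols too, and a list counts the genes found in the table. A marker gene of cortical neurons is not reported here.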

Additional observations from a re-analysis of the deposited data

How the results depend on the processing

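Under the 13 alternatives for Ankrd6 the log2 difference, responder minus non-responder, ran from 0.33 to 0.42, and under the 12 for Rars2, which averages too little for the minimum of 500, from -0.43 to -0.26. With each mouse left out in turn they ran from 0.34 to 0.38 and from -0.34 to -0.30. The number of genes called, 9 in the main test, was 23 with DESeq2, 20 with depth range as a covariate, 5 among genes averaging at least 500 and 3 with the deep libraries alone. limma called 0 with females, males or shallow libraries alone, where 181, 367 and 160 genes had an unadjusted p under 0.05. With 1 mouse left out the number was 7 to 14, the highest without mouse 42 or 45. For exon rows, 12 called became 20 among rows averaging at least 50, 7 without a filter, 2 with deep libraries alone and 27 without mice 63, 5, 4 and 62. The cause of these shifts was not tested.

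No gene near Ankrd6 or Rars2 was called by limma, edgeR or DESeq2 under any of the 15 alternatives, including windows of 1 and 5 Mb, and 1 of 15 had an unadjusted p under 0.05 in the shallow libraries alone and without mouse 40. With few genes called over the whole table, this is no result about the neighbours. The sex difference of Rars2 was -0.069 in shallow libraries alone, the interaction of Ankrd6 was -0.12 there, and with 1 mouse left out that interaction ran from -0.0091 to 0.068, below 0 without mouse 41 or 60. None of these passed the threshold. Under the 4 alternatives for it (untransformed values, deep libraries, without mice 63, 5, 4 and 62, sex means removed), the within-phenotype correlation of Ankrd6 with Rars2 stayed negative and not past the threshold, from -0.23 to -0.17 in non-responders and from -0.36 to -0.18 in responders. 1 component was chosen for each gene on untransformed values and in deep libraries. No paired analysis was possible because each mouse number names 1 mouse and the phenotypes share none. With 45 to 201 reads per mouse, Rars2 exon rows are near the limit of this depth.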
